A study of Mus musculus with 16 samples.

Results

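The repeats described here are those of the ERVK family, the mouse endogenous retroviruses related to betaretroviruses, in the transcripts of 2-cell embryos with or without Suv39h2 knockdown. Members were taken from the authors' 3 deposited repeat tables as every entry whose family field reads ERVK, whatever its case, which gave 278 of the 1160 repeats listed over the tables. The name of the family is thus the repeat annotation's own, and 2 further entries with the uncertain family ERVK? were not counted. In 2 of the tables all 278 members were listed with a p-value. The table of LacZ control against non-injected embryos listed 277 and lacked RNLTR23, a member with a mean count under 1 elsewhere.

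All embryos were hybrids of DBA fathers with mothers that were themselves F1 crosses of C57BL/6J and CBA/H, grown in KSOM. Of the 16 libraries, 4 came from embryos that were not injected. Zygotes received double-stranded RNA of either LacZ, which mice do not carry (LacZ control, 6 libraries), or Suv39h2 (knockdown, 6 libraries). Polyadenylated RNA was sequenced by Smart-seq2, a full-length protocol that keeps no strand. The design text speaks of pools of 5 embryos per library, while the extraction protocol speaks of 1, and the treatment field names Suv39h1 messenger RNA, which the other labels give to no group. Suv39h2 makes one of the enzymes that trimethylate lysine 9 of histone H3, and the comparison asks what embryos with less of its transcript express. Nothing in the labels says whether libraries of a group came from separate matings, so the p-values measure the spread between these libraries, which may in part be technical.

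An ERVK provirus consists of an internal part with gag, pro and pol genes, between 2 long terminal repeats (LTRs) that hold its promoter. Recombination between those LTRs has left most insertions in the genome as a solitary LTR. Intracisternal A particles (IAP) and early transposons (ETn, with their coding relative MusD) are the ERVK groups that still move in mice and cause germline insertions. In embryonic stem cells ERVK copies are silenced by KRAB zinc finger proteins that bind them and recruit TRIM28 and the H3K9 methyltransferase SETDB1, with SUV39H enzymes and DNA methylation adding to the repression. Some ERVK LTRs also act as enhancers, such as RLTR13D5 in trophoblast stem cells.

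The members fell by name into 25 IAP, 5 ETn/MusD, 5 MMERVK, 143 RLTR, 43 RMER and 57 other entries. RLTR and RMER are name series of rodent LTRs and of medium reiterated rodent repeats. By the ending of the name, 46 members are internal parts and 232 are LTRs. Each entry is a type of element, not a place in the genome, and related names share sequence. Whether its count takes in reads from all genomic copies is not given. The tables hold no values of single libraries, so every value below is a mean over libraries or a difference between groups, and the depth per library is unknown. Without strand, and with no rule of read assignment in the sources used here, transcripts started in an LTR and gene transcripts that contain a copy cannot be told apart. In bulk pools, fewer expressing cells and less RNA per cell cannot be told apart either.

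The authors' deposited tables give a mean normalized count, a shrunken log2 fold change with its standard error (written after ±), and an adjusted p from DESeq2. Headers of the repeat tables leave the sign undefined, so their direction was read from satellite repeats that the gene tables also cover. A member is called here where that adjusted p is under 0.05. Of the listed members, 259 had an adjusted p in knockdown against LacZ control, 261 in knockdown against non-injected and 268 in LacZ control against non-injected embryos. The others had low counts, with a mean under 10.6 in the first table. The targeted Suv39h2 stood at -1.95 ± 0.28 in knockdown over LacZ control in the authors' deposited gene table. The 5 genes typical of the 2-cell stage (Zscan4c, Zscan4d, Zfp352, Tdpoz4 and Usp17lc) had mean counts of 352.1 to 2987 there. Mean counts of these genes are the same in all 3 comparisons. Of the 5 cumulus and granulosa cell markers, Inhba was at 0, Fshr, Foxl2 and Amh had means of at most 0.67, and Cyp19a1 had 16.1.

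ERVK reads were concentrated in one LTR. RMER6A had a mean count of 280880 in the authors' deposited table of knockdown against LacZ control, 68.8% of the summed mean counts of all ERVK members. The other 277 members held 3.45% of the summed counts of all repeats there, against 7.61% for RMER6A. These are shares of reads and are not corrected for the length or number of copies. RMER6A was not called in any comparison. For knockdown over LacZ control the authors' deposited table put it at -0.17 ± 0.20 on the log2 scale. Over non-injected embryos it stood at 0.18 ± 0.16 in knockdown and 0.33 ± 0.22 in LacZ control, per the authors' deposited tables.

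The 3 comparisons share groups, so their values for a member are not independent and are given side by side. Between knockdown and LacZ control, both injected, no ERVK member passed the test. Among the 5 members with the smallest p were the LTRs RLTR13D5 and RLTR13D3, with lower values, and the internal parts MMERVK10D3_I-INT and ERVB4_2-I_MM, with higher values. Between knockdown and non-injected embryos 21 members changed, 13 upwards and 8 downwards, a share near that of all repeats (6.62%, with 3.6% higher and 3.02% lower). Between LacZ control and non-injected embryos none was called, and most members stood slightly above 0.

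**Figure D1:**
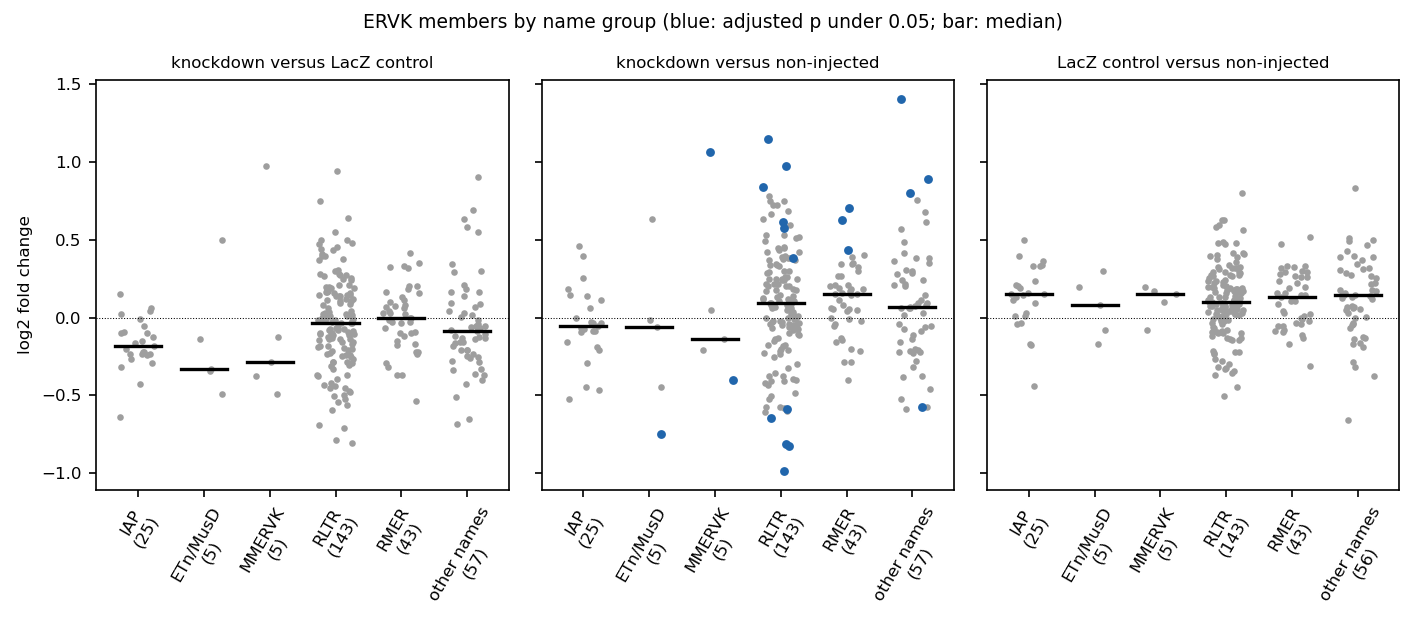
Log2 fold change (vertical axis) of each ERVK member with a p-value, by name group (horizontal axis, number of members in parentheses), in each of the 3 comparisons. Points are members, blue where the deposited adjusted p is under 0.05, and bars are medians. Blue points appear only in knockdown against non-injected embryos, and the IAP median lies at -0.18, -0.06 and 0.15 from left to right.

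In knockdown against LacZ control, DESeq2 called 0 of the 259 ERVK members tested, and 3 of 858 repeats in all (0.35%). At an unadjusted p under 0.05 there were 10 higher and 14 lower ERVK members, 24 of 278, where 6.69% of all repeats reached that level. The median log2 fold change was -0.07, with 110 members above 0 and 168 below. The other repeats had a median of -0.00, so relative to them the ERVK median was -0.07 as well. ERV1 elements had a median of -0.05, ERVL elements 0.04 and MaLR elements -0.00. The differences between these medians were not tested.

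RLTR13D3, an LTR of the RLTR13 series, was the member with the smallest p. The authors' deposited table gave -0.78 ± 0.23 at a mean count of 1010, with an adjusted p of 0.0565 from DESeq2. RLTR13D5, the trophoblast enhancer LTR named above, stood at -0.81 ± 0.23 in the authors' deposited table at a mean count of 883.8 (adjusted p = 0.0627, DESeq2). Neither passed. With the p-values adjusted over all repeats of the table, or over genes and repeats together, RLTR13D3 had 0.139 and 0.0956. ERVB4_2-I_MM, an internal part, stood at 0.90 ± 0.29 per the authors' deposited table, with a DESeq2 adjusted p of 0.0882. Next came MMERVK10C-INT, the internal part of a betaretrovirus-like provirus flanked by RLTR10 LTRs, at -0.49 ± 0.16, and MMERVK10D3_I-INT at 0.97 ± 0.33 per the authors' deposited table, with a DESeq2 adjusted p of 0.115 and 0.130. The extremes of the larger name groups in the authors' deposited table were RLTR20A2B_MM at 0.94 ± 0.33, RMER12B at 0.41 ± 0.18, RMER16A2 at -0.53 ± 0.27 and MLTR31D_MM at -0.68 ± 0.24. None of these 4 was called.

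In knockdown against non-injected embryos, the LTR RLTR13D3 fell and ERVB2_1-I_MM, RLTR17 and MYSERV-INT rose. DESeq2 called 21 of 261 ERVK members (8.05%), beside 57 of 861 repeats in all (6.62%). The ERVK share lies near that background. Marker genes moved in the same comparison: 2 of 5 2-cell genes, 3 of 5 oocyte genes and 2 of the 3 tested blastocyst genes were called higher and none lower in the authors' deposited gene table. None of these markers was called in knockdown against LacZ control or in LacZ control against non-injected embryos. The 2-cell genes had median log2 fold changes of -0.19, 0.50 and 0.69 (knockdown over LacZ control, knockdown over non-injected, LacZ control over non-injected). In that order oocyte genes had 0.09, 0.71 and 0.44, the blastocyst gene Krt8 had 0.68, 1.85 and 1.17, and Sox17 had 1.06, 1.30 and 0.24. Of all 14948 genes tested in knockdown against non-injected embryos 15.2% were called, 1108 higher and 1160 lower, and the markers' part in the repeat values was not tested. Of the 21 members 13 were higher and 8 lower, where 3.6% of all repeats were called higher and 3.02% lower. At an unadjusted p under 0.05, 28 members were higher and 18 lower, 46 of 278, where 11.5% of all repeats reached that level. The call depends on how p-values are adjusted: 10 of the 21 remained when the adjustment ran over the repeats of the table alone. The adjustment over repeats alone lost 11, among them RLTR13D5, both called MMERVK members and both called RLTR20 LTRs.

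**Figure D2:**
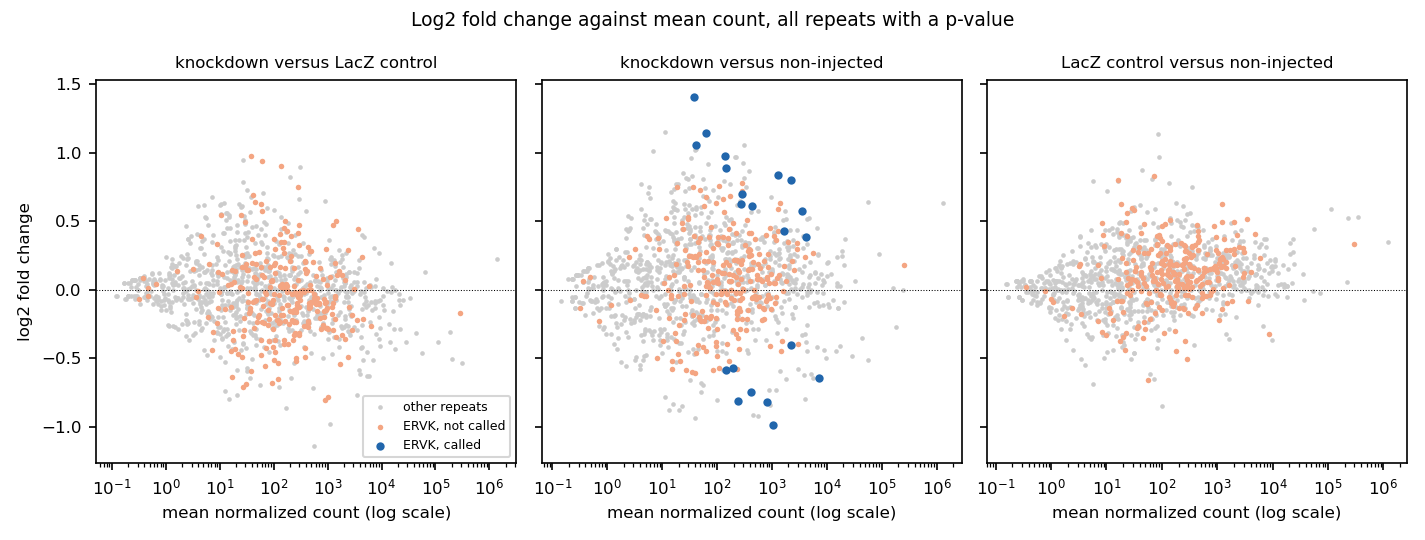
Log2 fold change (vertical axis) against mean normalized count (horizontal axis, log scale) for all repeats with a p-value in each comparison. Grey points are other repeats, orange points ERVK members not called and blue points ERVK members called by the deposited adjusted p. The 21 called members span mean counts of 38.9 to 7182, and the isolated orange point at the right is RMER6A.

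The 8 falls comprised 6 LTRs and 2 internal parts. In the authors' deposited table RLTR13D3 fell by 0.99 ± 0.19 (log2), a 1.98-fold difference (adjusted p = 1.51e-05, DESeq2), the smallest p of any ERVK member in the 3 tables. RLTR13B2 stood at -0.81 ± 0.20 and RLTR13D5 at -0.82 ± 0.25 per the authors' deposited table, with a DESeq2 adjusted p of 0.00127 and 0.0105. All 3 belong to the RLTR13 series. ETNERV3-INT, an internal part related to MusD, fell by 0.75 ± 0.20 per the authors' deposited table, with a DESeq2 adjusted p of 0.00229. RLTR19, the called member with the highest mean count (7182), fell by 0.64 ± 0.16 per the authors' deposited table, with a DESeq2 adjusted p of 0.00185. The authors' deposited table also has smaller falls of RLTR11D (-0.58 ± 0.22), ERVB7_3-LTR_MM (-0.58 ± 0.20) and MMERVK10C-INT (-0.40 ± 0.15), with adjusted p of 0.0375, 0.0295 and 0.0440 from DESeq2.

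Of the 13 rises, 4 were internal parts and 9 LTRs. ERVB2_1-I_MM, an internal part, rose by 1.40 ± 0.37 in the authors' deposited table, a 2.65-fold difference (adjusted p = 0.00281, DESeq2), at a mean count of only 38.9. The second largest rise, that of the LTR RLTR20A2B_MM (1.15 ± 0.41), and the third, that of MMERVK10D3_I-INT (1.06 ± 0.40), also came from low means of 63.7 and 40.8 per the authors' deposited table, with a DESeq2 adjusted p of 0.0284 and 0.0497. RLTR17 and MYSERV-INT rose at mean counts of 1273 and 2190, by 0.84 ± 0.19 and 0.80 ± 0.18 per the authors' deposited table, with a DESeq2 adjusted p of 0.000382 and 0.000404. RLTR34D_MM rose by 0.97 ± 0.27 and ERVB4_2-I_MM by 0.89 ± 0.32 per the authors' deposited table, with a DESeq2 adjusted p of 0.00469 and 0.0330.

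The remaining 6 rises were of LTRs. Among RMER elements, RMER17D2 rose by 0.70 ± 0.19, RMER12B by 0.63 ± 0.18 and RMER19A by 0.43 ± 0.15 per the authors' deposited table, with a DESeq2 adjusted p of 0.00346, 0.00681 and 0.0253. No RMER member was called lower. RLTR10D2 rose by 0.61 ± 0.22, RLTR17B_MM by 0.57 ± 0.19 and RLTR20A4 by 0.38 ± 0.13 per the authors' deposited table, with a DESeq2 adjusted p of 0.0304, 0.0202 and 0.0272. Just inside the threshold stood MMERVK10D3_I-INT, and just outside it RLTR26C_MM (0.63 ± 0.25) and RLTR10-INT (0.45 ± 0.18) in the authors' deposited table, with adjusted p of 0.0565 and 0.0573 from DESeq2.

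**Figure D3:**
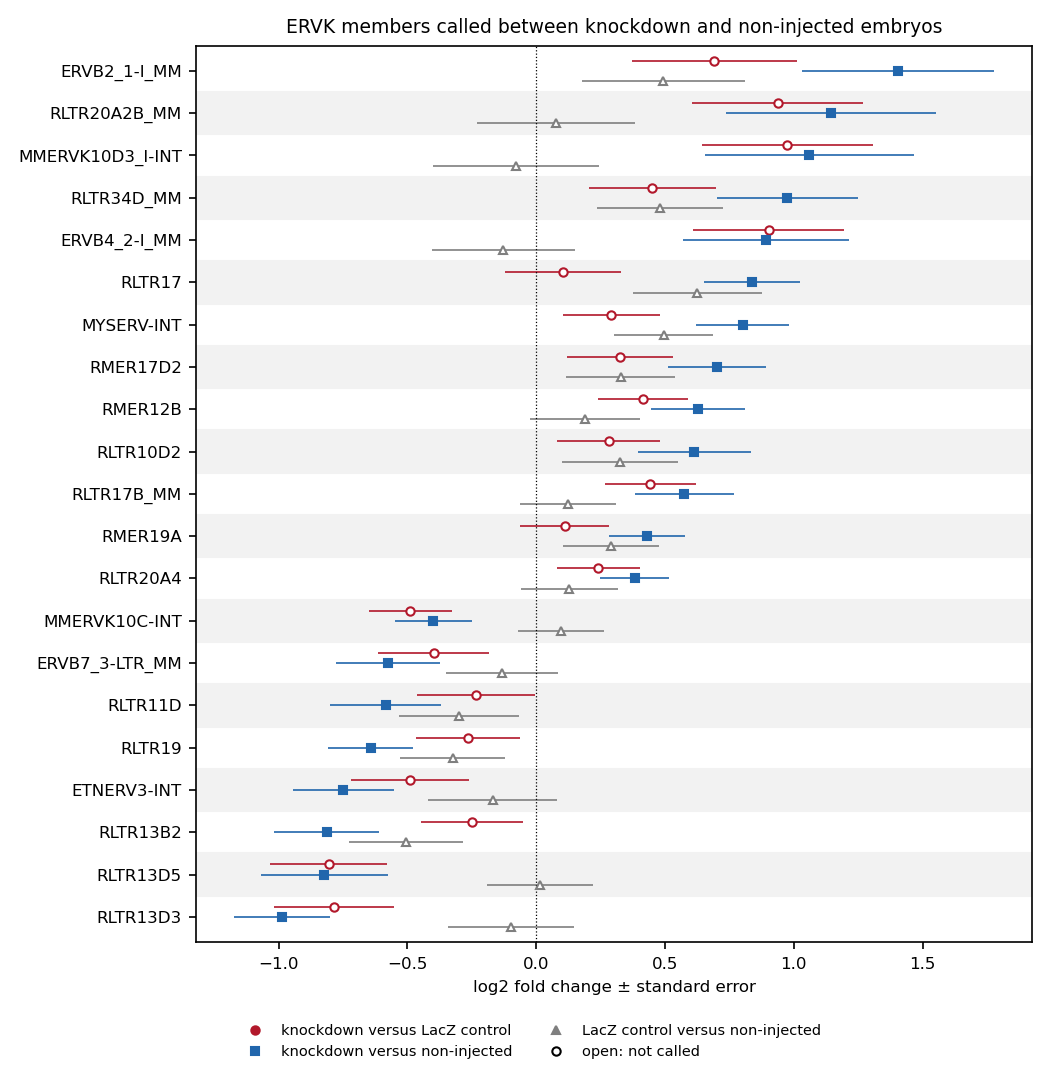
Log2 fold change with its standard error (horizontal axis) of the 21 ERVK members called between knockdown and non-injected embryos (vertical axis, ordered by that value), in the 3 comparisons. Filled symbols are called and open symbols are not. For RLTR13D3, RLTR13D5, ERVB4_2-I_MM and MMERVK10D3_I-INT the red and blue values lie side by side, away from the grey ones near 0, while for RLTR17 the grey value (0.63) is the one closer to the blue (0.84).

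Set side by side, the called members showed different patterns in the other tables. RLTR13D5 had values of -0.81, -0.82 and 0.02 in the authors' deposited tables, in the order knockdown over LacZ control, knockdown over non-injected, LacZ control over non-injected. For RLTR13D3 the authors' deposited tables gave -0.78, -0.99 and -0.10 in that order. MMERVK10D3_I-INT had 0.97, 1.06 and -0.08, and ERVB4_2-I_MM had 0.90, 0.89 and -0.13 in the authors' deposited tables. For these 4 LacZ control and non-injected embryos lay within 0.13 of each other. Knockdown was apart from both by 0.78 or more, although only the difference to non-injected embryos was called. With adjustment over the repeats alone, RLTR13D3 kept that call, while RLTR13D5, MMERVK10D3_I-INT and ERVB4_2-I_MM lost it. RLTR17 had 0.10, 0.84 and 0.63 in the authors' deposited tables, and RLTR13B2 had -0.25, -0.81 and -0.51. MYSERV-INT had 0.29, 0.80 and 0.49 in the authors' deposited tables. In these 3 the larger part of the difference to non-injected embryos was already present in LacZ control, where it was not called. Each repeat table was fitted separately, and the knockdown over non-injected value differed from the sum of the other two by -0.06 to 0.08 for 90% of members, and by up to 0.22 for ERVB2_1-I_MM.

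LacZ control against non-injected embryos gave no calls, 0 of 268 ERVK members and 0 of 943 repeats (0%) by DESeq2. At an unadjusted p under 0.05 there were 9 higher and 2 lower members, 11 of 277, where 3.34% of all repeats reached that level. Here 200 of 277 members had a log2 fold change above 0 (72.2%), with a median of 0.12. All other repeats had a median of 0.06 there, and 169 ERVK members (61.0%) stood above that value. MaLR repeats likewise had a median of 0.13. MLTR31C_MM had the smallest p, at 0.83 ± 0.27 per the authors' deposited table, with a DESeq2 adjusted p of 0.163. RLTR44D stood at 0.80 ± 0.33 and RMER19B2 at 0.52 ± 0.26 in the authors' deposited table, and SRV_MM-INT at the low end at -0.66 ± 0.30. None of these was called.

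IAP elements were not called in any comparison, with 24 members tested in each. Among all repeats 0.35% were called in knockdown against LacZ control, 6.62% in knockdown against non-injected and 0% in LacZ control against non-injected embryos. In knockdown over LacZ control 21 of the 25 IAP members were below 0, as were 617 of 1151 repeats in all, with an IAP median of -0.18. The range in that table ran from -0.64 (IAPEY5_I-INT) to 0.15 (IAPA_MM-INT, whose mean count of 3.23 left it without an adjusted p). All 10 entries named IAPLTR, which include the LTRs of IAPEz proviruses, lay below 0 there, between -0.43 for IAPLTR2A and -0.05 for IAPLTR3-INT in the authors' deposited table. Among the 10 was 0 at an unadjusted p under 0.05, and among all 25 only IAPEY5_I-INT, where 6.69% of all repeats reached that level. Over non-injected embryos the IAP median was -0.06 in knockdown and 0.15 in LacZ control. Since the entries share sequence, and reads may be divided among them, the counts of entries on one side of 0 are not counts of independent measurements.

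IAPEZ-INT is the internal part of the most active IAP type. It had -0.10 ± 0.17 in knockdown over LacZ control in the authors' deposited table. Over non-injected embryos the authors' deposited tables put it at 0.39 ± 0.17 in knockdown and 0.50 ± 0.16 in LacZ control, at mean counts of 1217 to 1255 in the tables with LacZ control. Its adjusted p from DESeq2 was 0.864, 0.0911 and 0.182 in that order. IAPLTR1_MM, an LTR of these proviruses, had -0.29 ± 0.22, -0.10 ± 0.22 and 0.20 ± 0.19 in the authors' deposited tables. IAPLTR2_MM had -0.10 ± 0.19, 0.06 ± 0.18 and 0.15 ± 0.19 in the authors' deposited tables. Over non-injected embryos IAPEZ-INT thus stood above both LTRs in either injected group, a difference between entries that was not tested. IAPEZ-INT was the only one of the 25 at an unadjusted p under 0.05 in those comparisons, with 0.0222 for knockdown and 0.00238 for LacZ control from DESeq2. Of all repeats 11.5% and 3.34% reached that level there.

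Of the other 9 internal parts of IAP, 8 lay below 0 in knockdown over non-injected embryos and 7 in knockdown over LacZ control. Below 0 were 444 of 1143 repeats in the former and 617 of 1151 in the latter. IAP-D-INT had -0.22, 0.11 and 0.34, and IAP1-MM_I-INT had -0.23, -0.03 and 0.19 in the authors' deposited tables, in the same order of comparisons. IAPEY-INT was lower in both injected groups than in non-injected embryos, at -0.47 ± 0.39 and -0.44 ± 0.32 in the authors' deposited tables, without a call. IAPEY3-INT (-0.15, -0.19 and -0.04), IAPEY4_I-INT (-0.19, -0.09 and 0.12), IAPLTR3-INT (-0.05, -0.06 and 0.01) and IAPLTR4_I (-0.24, -0.16 and 0.09) stayed within 0.25 of 0 in the authors' deposited tables. IAPEY5_I-INT stood at -0.64 ± 0.31 in knockdown over LacZ control in the authors' deposited table, whereas IAPEY5_LTR was at 0.06 ± 0.27. Its mean count was 17.2, against 88.0 for the LTR.

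**Figure D4:**
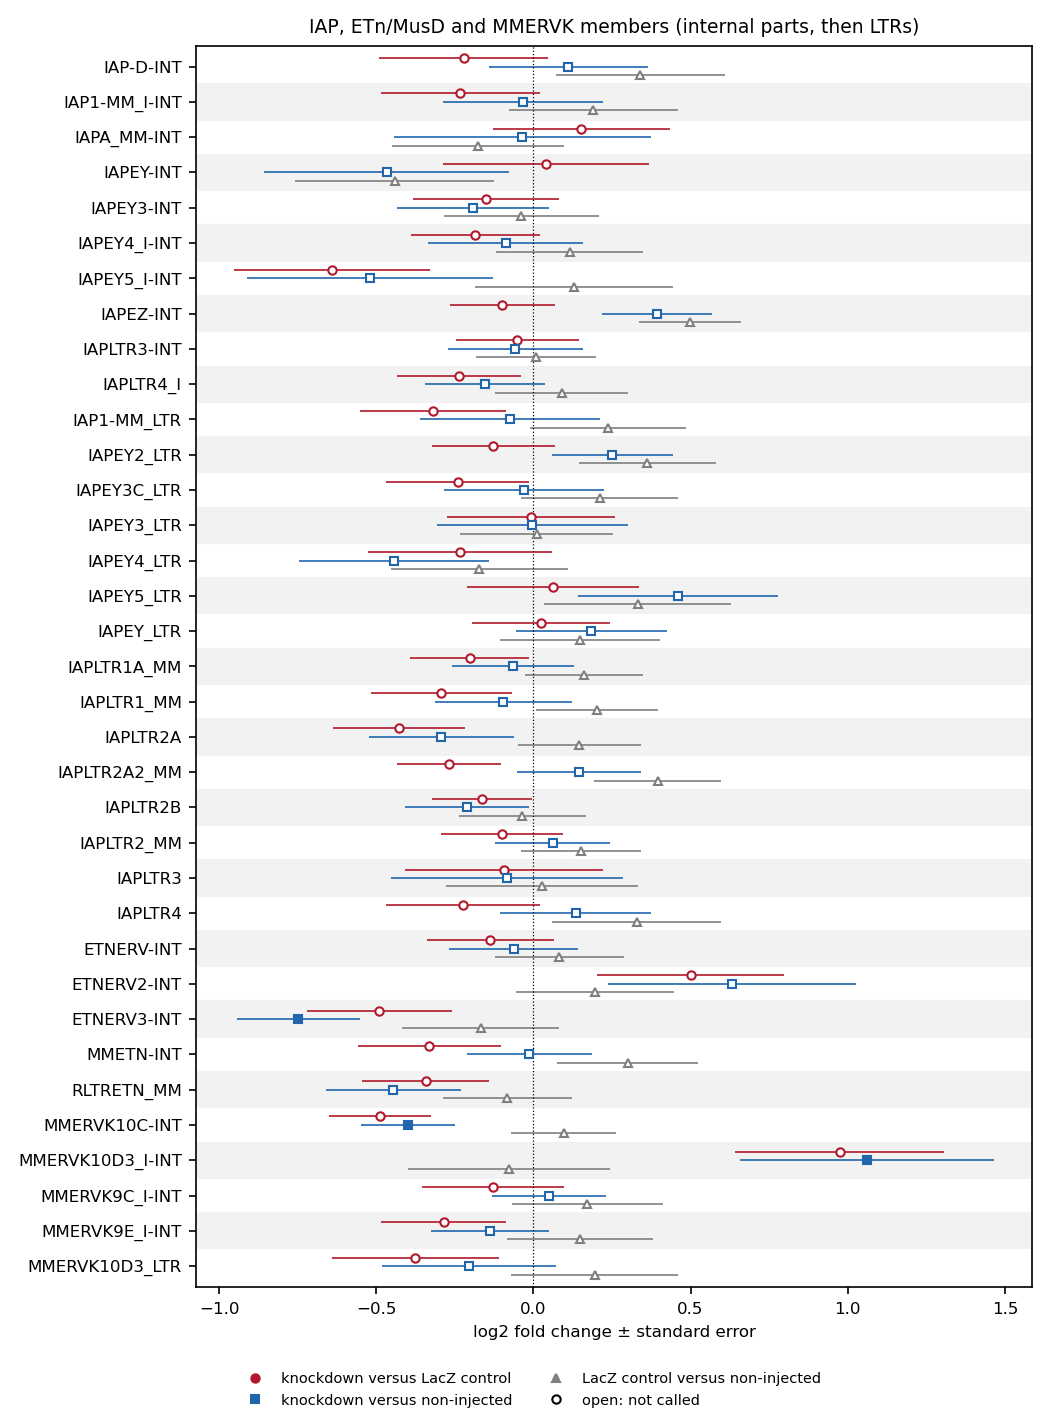
Log2 fold change with its standard error (horizontal axis) of the 25 IAP, 5 ETn/MusD and 5 MMERVK members (vertical axis, internal parts before LTRs in each group) in the 3 comparisons. Filled symbols are called. The 3 filled symbols are ETNERV3-INT, MMERVK10C-INT and MMERVK10D3_I-INT in knockdown against non-injected embryos, and IAPEZ-INT lies right of 0 over non-injected embryos only.

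ETn/MusD members pointed in different directions. ETNERV3-INT was lower in knockdown, at -0.49 ± 0.23 over LacZ control and, called, at -0.75 ± 0.20 over non-injected embryos in the authors' deposited tables. ETNERV2-INT was on the other side of 0, at 0.50 ± 0.30 and 0.63 ± 0.39 per the authors' deposited tables, with a DESeq2 adjusted p of 0.434 and 0.261. MMETN-INT, the ETn internal part, stood at -0.33 ± 0.23 over LacZ control and -0.01 ± 0.20 over non-injected in the authors' deposited tables, and ETNERV-INT at -0.14 ± 0.20 and -0.06 ± 0.21. RLTRETN_MM, the LTR of ETn and MusD, had -0.34 ± 0.20 and -0.45 ± 0.21 per the authors' deposited tables, with a DESeq2 adjusted p of 0.453 and 0.132. LacZ control over non-injected embryos ranged from -0.17 for ETNERV3-INT to 0.30 for MMETN-INT in the authors' deposited table, with no call.

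MMERVK members were also split. MMERVK10C-INT fell in knockdown over non-injected embryos (-0.40 ± 0.15) and had -0.49 ± 0.16 over LacZ control in the authors' deposited tables. RLTR10C, an LTR of the same provirus, had similar values of -0.38 ± 0.15 and -0.54 ± 0.21 in the authors' deposited tables, not called (adjusted p = 0.0643 and 0.204, DESeq2). MMERVK10D3_I-INT rose over non-injected embryos, but MMERVK10D3_LTR did not follow it, with -0.21 ± 0.28 there and -0.38 ± 0.27 over LacZ control in the authors' deposited tables. MMERVK9C_I-INT had -0.13, 0.05 and 0.17, and MMERVK9E_I-INT had -0.29, -0.14 and 0.15 in the authors' deposited tables, in the order of comparisons used above. Neither was called.

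The LTRs of the RLTR13 series held members on both sides of 0, from -0.99 to 0.72 in knockdown over non-injected embryos. Of its 23 members 21 had an adjusted p in knockdown against non-injected embryos, 3 were called lower and 0 higher, and the median was -0.11. Among all repeats 3.02% were called lower and 3.6% higher in that comparison, and the difference between the series and other repeats was not tested. RLTR13C3 had the highest value there, at 0.72 ± 0.36, and RLTR13D3A, close in name to RLTR13D3, was at 0.68 ± 0.36 per the authors' deposited table, with a DESeq2 adjusted p of 0.154 and 0.184. RLTR13D3A1 (0.42 ± 0.26) and RLTR13D6 (0.51 ± 0.22) also stood above 0 in the authors' deposited table without a call. RLTR13D3 and RLTR13D3A thus differed by more than the sum of their standard errors, a difference that was not tested. In knockdown over LacZ control RLTR13E had -0.52 ± 0.20 and RLTR13C2 0.50 ± 0.24 in the authors' deposited table, on either side of 0 and not called. The series has 10 members above 0 and 13 below in that table.

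**Figure D5:**
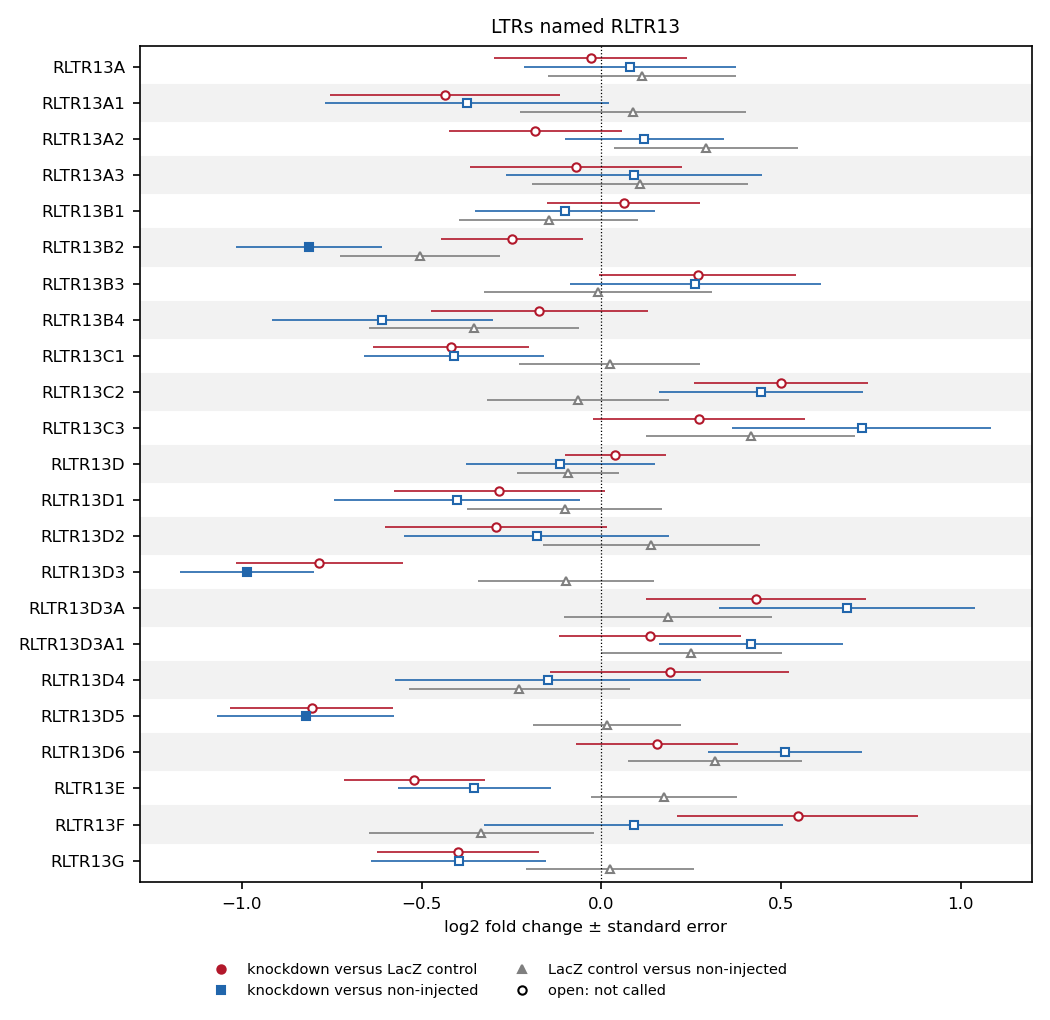
Log2 fold change with its standard error (horizontal axis) of the 23 LTRs named RLTR13 (vertical axis) in the 3 comparisons. Filled symbols are called and open symbols are not. RLTR13D3, RLTR13D5 and RLTR13B2 are called lower in knockdown against non-injected embryos, between -0.99 and -0.81, while RLTR13D3A and RLTR13C3 lie right of 0.

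Other RLTR series had smaller ranges or single calls. The 9 LTRs named RLTR10 ran from -0.58 (RLTR10E) to 0.61 (RLTR10D2) in knockdown over non-injected embryos in the authors' deposited table, with a median of -0.00 and 1 call, RLTR10D2. Of 16 RLTR20 LTRs, 12 were above 0 in that table and 2 were called higher, RLTR20A2B_MM and RLTR20A4. Among all repeats 61.2% were above 0 there, 6.62% were called and 3.6% were called higher. The 4 RLTR17 LTRs had 2 calls, RLTR17 and RLTR17B_MM, whereas RLTR17C_MM stood at -0.52 ± 0.35 and RLTR17D_MM at 0.01 ± 0.21 in the authors' deposited table. The 13 RLTR9 LTRs, a series with enhancer activity in embryonic stem cells, had no call by DESeq2 and 1 lower value at an unadjusted p under 0.05, RLTR9E at -0.41 ± 0.18 in the authors' deposited table. Among all repeats 11.5% reached that unadjusted level in knockdown against non-injected embryos. All 143 RLTR members together had a median of -0.03, 0.09 and 0.10 in the 3 comparisons, and 6 rises and 5 falls in the second.

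RMER elements had a median of -0.00 in knockdown over LacZ control, 0.15 in knockdown over non-injected and 0.13 in LacZ control over non-injected embryos. Of the 43 members 30 (69.8%) were above 0 in the second comparison, as were 62.3% of all other repeats. Above the median of those other repeats stood 25 of the 43. Of 41 tested members 3 were called (7.32%), all higher, near the 6.62% of all repeats. The lowest RMER value there was that of RMER4B, at -0.40 ± 0.16 per the authors' deposited table, with a DESeq2 adjusted p of 0.0718. The 4 RMER19 LTRs all lay above 0 in that table, between 0.27 and 0.43. The 5 RMER6 LTRs had a median of -0.17, 0.16 and 0.27 in the order of comparisons used above, with no call.

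Among the 57 other names, the 21 ERVB entries held 3 of the 4 calls. These were 3 of 20 tested ERVB entries (15%) in knockdown against non-injected embryos, beside 6.62% of all repeats. The ERVB median was -0.20 in knockdown over non-injected embryos although 2 of the 3 calls were rises. MYSERV-INT held the fourth call, while MYSERV6-INT and MYSERV16_I-INT had 0.21 ± 0.21 and 0.06 ± 0.21 in the authors' deposited table. The 17 MLTR entries and 7 BGLII entries had no call by DESeq2 in that comparison, with 2 MLTR entries higher and 1 lower at an unadjusted p under 0.05 and 0 BGLII entries. Among all repeats 11.5% reached that unadjusted level. MLTR31D_MM was the lowest member of the 57, at -0.59 ± 0.28 in the authors' deposited table. MMTV-INT, the mouse mammary tumour virus, had a mean count of 2.56 in the authors' deposited table for that comparison and no adjusted p.

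In knockdown over LacZ control the 46 internal parts had a median of -0.13, with 12 above 0, and the 232 LTRs of -0.04, with 98 above 0. Over non-injected embryos the medians in knockdown were -0.02 and 0.08, with 6 of 43 tested internal parts (14.0%) and 15 of 218 tested LTRs (6.88%) called, beside 6.62% of all repeats. In LacZ control over non-injected embryos they were 0.11 and 0.13. The differences between internal parts and LTRs were not tested.

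ERVK members with a mean count of 1000 or more had a median standard error of 0.19 in knockdown over non-injected embryos, against 0.34 for those with means of 10 to 100. Of 33 members with means of 1000 or more, 8 were called (24.2%). Of 98 with means of 10 to 100, 3 were called (3.06%), all higher. Among all repeats of any mean count 6.62% were called, and the share within these bins was not computed for other repeats. The 17 members with means under 10 in that table had a median standard error of 0.41 and no adjusted p. In LacZ control over non-injected embryos the order of the lowest bins was the other way round, with 0.28 under 10 and 0.30 from 10 to 100.

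Transcripts of the silencing machinery were measured in the same libraries. Of 44 genes listed for repression of ERVK or its removal, DESeq2 called 1 in knockdown against LacZ control, the targeted Suv39h2, beside 0.899% of all genes tested. Against non-injected embryos 9 were called lower and 2 higher of 43 tested, beside 15.2% of all genes, and in LacZ control against non-injected embryos 0 of 44, beside 0.792%. At an unadjusted p under 0.05 there were 3 higher and 15 lower of the 44 in knockdown against LacZ control. Of all 33028 genes with a p-value, 1329 were higher and 1357 lower at that level there. These reach down to a mean count of 0.0417, while the 43 listed genes with an adjusted p had 39.9 to 26588. The share among genes of like mean count was not computed. Knockdown against non-injected embryos had 5 higher and 15 lower of the 44, beside 2637 and 2257 of all genes. LacZ control against non-injected embryos had 2 higher and 3 lower, beside 1297 and 866 of all genes. Suv39h2 itself was among the lower genes in both comparisons with knockdown. The list had a median log2 fold change of -0.33 in both comparisons with knockdown and -0.02 in the third, where all tested genes had medians of 0.02, 0.05 and 0.00. Both groups of values, repeats and genes, come from bulk embryos, and their relation was not tested.

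Of the genes for the HUSH complex and its partners, some were called lower over non-injected embryos and some were not. Fam208a, which encodes the HUSH subunit TASOR, fell by 1.16 ± 0.24, Pphln1, encoding its partner periphilin, by 0.84 ± 0.25 and the HUSH effector Morc2a by 0.88 ± 0.24 per the authors' deposited table, with a DESeq2 adjusted p of 0.000198, 0.0132 and 0.00384. Over LacZ control the authors' deposited table gave -0.67 ± 0.23, -0.68 ± 0.23 and -0.48 ± 0.22 for these 3, not called. In LacZ control over non-injected embryos they had -0.48, -0.16 and -0.39, not called either. Mphosph8, which encodes the HUSH subunit MPP8, was not called in any comparison, with -0.61 ± 0.23, -0.08 ± 0.24 and 0.53 ± 0.24 in the authors' deposited tables, in the order used above. Trim33, which represses RLTR10B LTRs in the male germ line, fell by 0.999 ± 0.234 over non-injected embryos per the authors' deposited table, with a DESeq2 adjusted p of 0.000946. Trim33 had -0.72 ± 0.22 in knockdown over LacZ control and -0.28 ± 0.24 in LacZ control over non-injected embryos, neither called. RLTR10B itself had 0.02, 0.20 and 0.18 in the authors' deposited tables, in the order used above. Fam208a shares exonic sequence with Ccdc66 and Morc2a with Tug1 on opposite strands, so their values are uncertain without strand. The same holds for Suv39h2, whose exons meet Dclre1c and Gm13184 on the other strand.

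Further factors fell over non-injected embryos in the authors' deposited table: Tet1, an enzyme that oxidizes methylated DNA (-0.94 ± 0.23), Sumo2 (-0.85 ± 0.26), Rif1 (-0.67 ± 0.20) and the H3K9 methyltransferase Ehmt1 (-0.66 ± 0.21), with adjusted p of 0.00202, 0.0142, 0.0146 and 0.0191 from DESeq2. Suv39h2 stood at -1.79 ± 0.29 there. Cbx1, which encodes the heterochromatin protein HP1 beta, rose by 1.05 ± 0.24 and Dnmt3l, a cofactor of DNA methyltransferases, by 0.65 ± 0.18 per the authors' deposited table, with a DESeq2 adjusted p of 0.000779 and 0.00700. In knockdown over LacZ control Tet1, Sumo2, Rif1 and Ehmt1 had -0.45, -0.61, -0.49 and -0.16, and Cbx1 and Dnmt3l had 0.49 and 0.51. In LacZ control over non-injected embryos the same genes had -0.49, -0.24, -0.17 and -0.50, and 0.56 and 0.14. None of these values was called. Exons of Dnmt3l overlap Aire on the other strand. Trim28 and Setdb1, the core of the ERVK silencing pathway, had -0.47 ± 0.21 and -0.38 ± 0.24 over non-injected and -0.37 ± 0.20 and -0.39 ± 0.22 over LacZ control in the authors' deposited tables, and were not called. On GRCm38, Fam208a lies on chromosome 14 (27428834 to 27483555), Trim33 on chromosome 3 (103279293 to 103358775) and Cbx1 on chromosome 11 (96789127 to 96808640), all annotated as protein-coding.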

How the data were processed

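The submitters' processing notes name STAR 2.5.2b, SAMtools, HTSeq 0.9.1, DESeq2 1.18.1 and the build GRCm38.p5. RUVSeq factors and shrinkage are known only from the names of the deposited tables, and the sources used here do not give how reads were assigned to repeats. The authors' 6 tables (3 of genes, 3 of repeats) give, per the file headers, the mean count after size factors, a signal in arbitrary units. Their log2 fold changes and standard errors were deposited too. The deposited Wald statistic is a score. Each p-value and its adjustment are likewise the authors', as deposited. No column holds values of single libraries (0 such columns), so nothing was refitted and no depth, interval or batch could be computed.

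The sign of the repeat tables is not in their headers. It was read as knockdown over control and injected over non-injected. In that reading the major satellite GSAT_MM had -1.14, -0.92 and 0.37 in the 3 comparisons, beside medians of -1.02, -0.62 and 0.41 for 7 genes whose GENCODE vM21 transcripts repeat every 234 bases (at least 60% of bases equal 1 period on, mean count of 10 or more). The gene tables' sign is checked by Suv39h2 in both comparisons with knockdown (-1.95 and -1.79). In LacZ control over non-injected embryos Suv39h2 had 0.16 ± 0.29, too close to 0 to check the sign there. Adjustment over only those repeats that had a deposited adjusted p differed from it by up to 0.218, 0.217 and 0.574 (knockdown against non-injected, knockdown against LacZ control, LacZ control against non-injected). That is a narrower set than the adjustment over the repeats alone in the Results, which took all repeats with a p-value.

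Names were grouped by prefix. Internal parts end in INT or I, and 8 names ending in I_MM were added to them after the names were seen. The text names all members called, the 5 smallest p-values per comparison, the internal parts of IAP, ETn/MusD and MMERVK, the extremes of name groups at mean counts of 10 or more, and silencing factors called. Other entries were chosen after their values were seen. Members and lists were chosen with earlier results of these data known. Tables were summarised with pandas 2.3.3 in Python 3.11.15, and the Benjamini-Hochberg adjustment was tested on simulated data.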

Additional observations from a re-analysis of the deposited data

How the results depend on the processing

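The ERVK calls depended on the adjustment. Between knockdown and non-injected embryos the 21 calls became 10 with adjustment over all repeats with a p-value, 11 over genes and repeats together, 11 over repeats with a mean count of 10 or more and 11 over those with 100 or more, and 46 at an unadjusted p under 0.05. None of these 4 adjustments called a member outside the 21. At 100 or more, ERVB2_1-I_MM, MMERVK10D3_I-INT and RLTR20A2B_MM were not tested, with mean counts of 38.9, 40.8 and 63.7. ERVB2_1-I_MM kept its call in the other adjustments. Between knockdown and LacZ control the 0 calls became 3 at an adjusted p under 0.1 and 24 unadjusted, and between LacZ control and non-injected embryos 11 unadjusted. The silencing factors, with alternatives chosen after the data had been seen, went from 1 to 2 at an adjusted p under 0.1 and to 18 unadjusted against LacZ control, from 11 to 20 unadjusted in knockdown against non-injected embryos, and from 0 to 5 unadjusted in LacZ control against non-injected embryos. The ETn/MusD median in knockdown over non-injected embryos was -0.06 over all members and -0.45 for its only LTR. Other medians moved too, that of all ERVK members in knockdown over LacZ control between -0.14 and -0.05 and that of RMER between -0.15 and 0.03 around -0.00. The sign of 4 medians changed: all ERVK members in knockdown over non-injected embryos from 0.06 to -0.01 when measured from the median of all other repeats, RMER in knockdown over LacZ control from -0.00 to 0.03 and ETn/MusD in LacZ control over non-injected embryos from 0.08 to -0.08 over LTRs only, and the other names in LacZ control over non-injected embryos from 0.14 to -0.00 over internal parts. No called member changed direction when measured from the other repeats. Of the alternative values for single named members, 89 kept their direction and side of the threshold and 38 kept only the direction. Leaving out replicates was not run, since no file gives values of single libraries. No paired analysis was possible because the columns carry no replicate and the results come from the authors' own tests. Depth per library is unknown, and shrinkage pulls the fold changes of members with few reads towards 0.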
